A study of Mus musculus with 12 samples.

Results

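The cytosolic ribosomal protein genes described here were the 89 genes of 55414 in the deposited table whose mouse symbols name a protein of the small subunit (Rps genes and Rpsa, 36) or of the large subunit (Rpl genes and Rplp0, Rplp1 and Rplp2, 53), without the symbols marked as pseudogenes. The choice used symbols and no measured value. RNA was sequenced from tongue epithelium of Langerin-DTR mice, which make the receptor for diphtheria toxin in cells that express langerin, the product of Cd207. One group of 6 samples (DT) came from mice given diphtheria toxin and the other 6 (PBS) from mice of the same genotype given phosphate-buffered saline, with 2 injections a week that began at 2 weeks of age and ran into adulthood. All 12 samples thus share the transgene and the injections, and differ in the toxin. The labels name no strain, no adult age and no number of mice per sample. Each sample is treated here as a separate mouse, and if that does not hold, the p-values below measure only the spread between these samples.

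Total counts per sample ran from 21226436 to 34333949, and 14231 genes were tested. Cd207, the marker of the targeted cells, followed the labels and averaged 0.0189 ± 0.0231 CPM in DT and 2.80 ± 0.436 CPM in PBS (SD, n = 6 each; edgeR adjusted p = 6.71e-09). CPM here is the count of a gene per 1000000 counts of its library, after TMM had scaled the libraries so that most genes sit at a common level. Keratins of the tongue surface dominated the libraries in both groups: Krt13 took 5.82% of counts in DT and 6.19% in PBS, and Krt4 took 4.70% in DT and 4.84% in PBS. These are bulk samples, so fewer cells of a type and less RNA per cell cannot be told apart.

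Ribosomal proteins fold onto ribosomal RNA to build the subunits that decode mRNA (small) and join amino acids (large), and most of them are made in equal numbers, because a ribosome holds 1 copy of nearly every one. Their mRNAs belong to the TOP class: they begin with a C followed by a run of pyrimidines at the cap, and through that run growth signals (mTORC1, with the repressor Larp1) raise or lower their translation together. In a stratified epithelium such as the tongue's, basal cells grow, divide and make ribosomes, whereas cells that cornify lose their organelles.

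The annotated start sites of 12 members were searched for such a run, which was found in 9 of them and across the start itself in 3. The set holds the 6 most abundant members, the 4 members with the smallest p in the comparison of DT with PBS, and the 2 tested members with the lowest level. Each line gives 30 bases before and 20 bases from the annotated start, 5′ to 3′ along the gene's strand, from the promoter table of RefSeq for build GRCm38.p6. Of the 12, only Rps24 had more than 1 entry there (2), and an entry with such a run was preferred for printing. Capitals mark the first run of a C followed by at least 5 further C or T bases on the sense strand.
Rplp0, chr5:115559437-115559486, plus strand: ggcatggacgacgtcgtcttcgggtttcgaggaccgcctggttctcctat
Rpl4, chr9:64173357-64173406, plus strand: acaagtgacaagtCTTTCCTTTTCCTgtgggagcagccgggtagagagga
Rps24, chr14:24490648-24490697, plus strand: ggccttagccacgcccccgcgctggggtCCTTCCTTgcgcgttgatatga
Rps12, chr10:23787190-23787239, minus strand: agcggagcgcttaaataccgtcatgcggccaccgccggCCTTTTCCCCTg
Rpsa, chr9:120127736-120127785, plus strand: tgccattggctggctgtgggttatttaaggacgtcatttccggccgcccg
Rps2, chr17:24720033-24720082, plus strand: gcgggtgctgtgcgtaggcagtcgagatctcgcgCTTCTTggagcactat
Rpl12, chr2:32961682-32961731, plus strand: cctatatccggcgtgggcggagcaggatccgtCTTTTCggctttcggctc
Rps15a, chr7:118116128-118116177, minus strand: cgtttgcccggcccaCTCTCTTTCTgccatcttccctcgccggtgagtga
Rps18, chr17:33955646-33955695, minus strand: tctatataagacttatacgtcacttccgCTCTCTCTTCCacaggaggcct
Rps7, chr12:28635934-28635983, minus strand: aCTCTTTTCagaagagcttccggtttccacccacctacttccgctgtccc
Rps10, chr17:27635225-27635274, minus strand: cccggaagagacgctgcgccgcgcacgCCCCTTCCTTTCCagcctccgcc
Rpl24, chr16:55966245-55966294, plus strand: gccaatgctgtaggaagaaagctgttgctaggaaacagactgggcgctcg

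The tract lay across the annotated start in Rps24, Rps18 and Rps10, before it in Rpl4, Rps15a and Rps7, and after it in Rps12, Rps2 and Rpl12. It was not found in the windows of Rplp0, Rpsa and Rpl24. The table held 76 entries for 64 of the members, and 46 of them (60.5%) had such a run in this window. The share was 35.6% over all 32851 promoter entries and 36.2% over the 1680 entries of other genes with at least 100 CPM. The motif CGGAAG, the core bound by ETS factors such as Gabpa, was found on either strand within the 300 bases of 59.2% of the member entries, against 16.9% of all entries and 23.5% of those of the other abundant genes. Its reverse complement CTTCCG can overlap a pyrimidine run. CCATCTT, a form of the YY1 motif, was in 15.8% of the member entries, 6.34% of all and 6.73% of those of the other abundant genes. For TATAAA these shares were 10.5%, 13.6% and 10.95%, and for the E-box CACGTG 10.5%, 7.15% and 9.17%. The members' shares of TATAAA and CACGTG were thus close to those of the other abundant genes. Counted per gene, CACGTG was found for 9.38% of the members with an entry and 11.29% of the other abundant genes. Split by these letters, the median log2 fold change of DT over PBS was 0.10 for the 41 tested members with the pyrimidine run and 0.11 for the 19 without it, and 0.10 for the 41 with CGGAAG and 0.13 for the 19 without it.

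By counts per gene, not divided by length, the members ranged from Rplp0, whose protein anchors the stalk of the large subunit, at 1766 ± 120.4 CPM in DT and 1615 ± 92.9 CPM in PBS (SD, n = 6 each), to Rpl10l with 0 counts in all 12 samples. The 6 most abundant were Rplp0, Rpl4, Rps24, Rps12, Rpsa and Rps2, which together held 18.2% of the members' counts. A low-count filter passed 81 of the 89 members, and 74 of those averaged at least 100 CPM. The 8 members that did not pass were Rpl32l, Rpl3l, Rps3a3, Rps3a2, Rps12l1, Rpl39l, Rpl6l and Rpl10l, with 0 to 40 counts over the DT samples and 0 to 26 over the PBS samples. Of these 8, Rps3a2, Rps3a3, Rps12l1 and Rpl6l are, like the tested Rps4l, pseudogenes in RefSeq. Rows whose symbols carry a pseudogene mark numbered 322, of which 206 had a count, and took 0.00174% of all counts in DT and 0.00152% in PBS.

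Levels were also set side by side per length. Divided by the coding length, without the stop codon, of the GENCODE M21 transcript, the highest level was that of Rpl41, at 8910 CPM (not TMM-scaled) per kilobase. Its coding sequence of 75 bases is the shortest of the set, and per kilobase of its whole transcript of 544 bases it had 1228 CPM. Rps24 followed with 3089 and Rps12 with 2440 CPM per coding kilobase. Among the tested members, the lowest were Rpl24 with 2.61, Rps10 with 4.45 and Rpl7l1 with 69.7 CPM per coding kilobase. Rpl24 and Rps10 encode core proteins of the large and small subunit, and Rpl13a, another core gene, had 73.2. Rpl7l1, Rpl22l1 (118) and Rps27l (118) are paralogs of more abundant members.

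The 3 core genes at the low end share a feature of the annotation. In GENCODE M21, 69.4% of the 50-base windows of the Rpl24 transcript, 50.8% of those of Rps10 and 57.4% of those of Rpl13a also lie in another gene annotated on the same strand over the same exons. These other genes are Gm28037 for Rpl24, the readthrough gene RPS10-NUDT3 (Gm49804 in the table) for Rps10, and Gm45713 for Rpl13a, and each of them had 0 counts in both groups. Among the other tested members with a coding transcript the largest share was 4.42%, for Rpl19. How reads lying in more than 1 gene were counted is not given in the sources used here, and the part of this overlap in the levels was not tested. Members also share sequence with genes elsewhere, including their many processed copies: 98.6% of the windows of Rps27 and 2.96% of those of Rps3 occur in another annotated gene, so single levels are uncertain wherever reads could be split or lost.

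**Figure D1:**
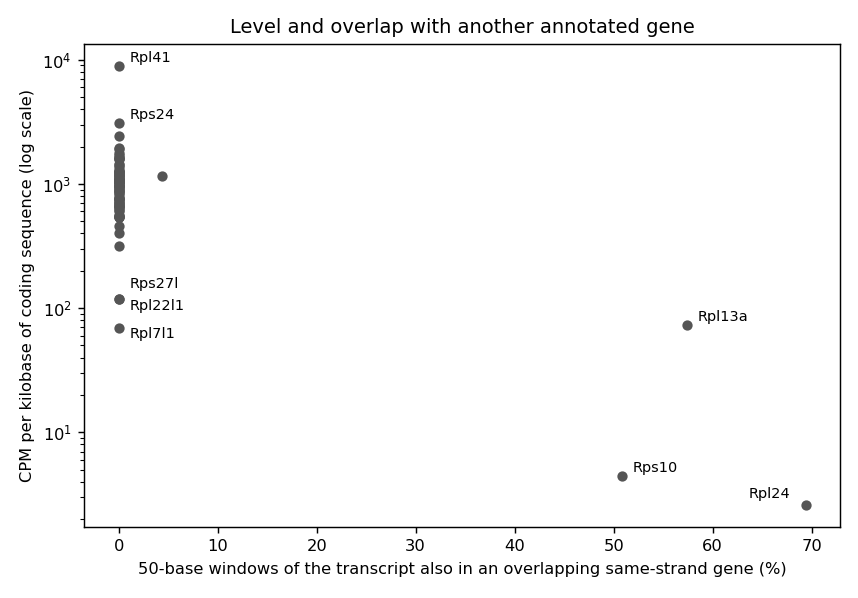
Level of members with a coding transcript and a mean of at least 1 CPM, and of Fau and Rack1, as CPM per kilobase of coding sequence (log scale), against the percent of 50-base windows of its transcript that also lie in an overlapping gene on the same strand. Rpl24, Rps10 and Rpl13a stand apart at 50.8% or more, with levels of 2.61 to 73.2.

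Ribosomal protein genes took on average a larger part of all counts in DT than in PBS. The share of all counts was 4.03%, 4.01%, 4.65%, 4.30%, 4.19% and 4.47% in DT samples 1 to 6, against 3.69%, 3.62%, 3.81%, 4.06%, 3.44% and 3.66% in PBS samples 1 to 6. In DT, 4 of the 6 samples lay above the highest PBS sample, and the other two lay above all PBS samples but PBS 4. The mean was 4.27 ± 0.253% in DT and 3.71 ± 0.206% in PBS (SD, n = 6 each), a difference of 0.561 percentage points and a ratio of 1.15. The small subunit's share of the unscaled counts did not overlap between the groups, with 1.69 ± 0.105% in DT and 1.44 ± 0.0762% in PBS. The gap was narrow: the lowest DT sample had 1.59% and the highest PBS sample 1.57%. The large subunit's share was 2.59 ± 0.153% in DT and 2.27 ± 0.133% in PBS, and 4 of the 6 DT samples exceeded every PBS sample. No p is attached to these shares, which are sums over a chosen set. The shares of the 2 subunits are not given over the TMM-scaled library, but the small subunit's gap does not hold there. The TMM factor was 1.03 for DT 2, the lowest DT sample, and 0.976 for PBS 4, the highest PBS sample. Dividing by these factors lowers the share of DT 2 and raises that of PBS 4.

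Part of that difference depended on how the libraries were scaled. As a share of the TMM-scaled library the members took 4.13% in DT and 3.85% in PBS, a difference of 0.281 points and a ratio of 1.07, and the groups overlapped: the summed level ran from 38915 to 47204 CPM in DT and from 37078 to 41579 CPM in PBS. The TMM factors themselves differed, at 1.04 ± 0.0505 in DT and 0.965 ± 0.0357 in PBS. Mitochondrial genes took 2.82 ± 0.292% of counts in DT and 3.38 ± 0.845% in PBS, and leaving them out of the total gave a difference of 0.554 points. Leaving out the 20 most abundant other genes gave 0.593 points, and leaving out the 6 most abundant members gave 0.477 points. The difference stayed between 0.485 points (without DT 3) and 0.630 points (without PBS 4) when any 1 sample was left out.

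**Figure D2:**
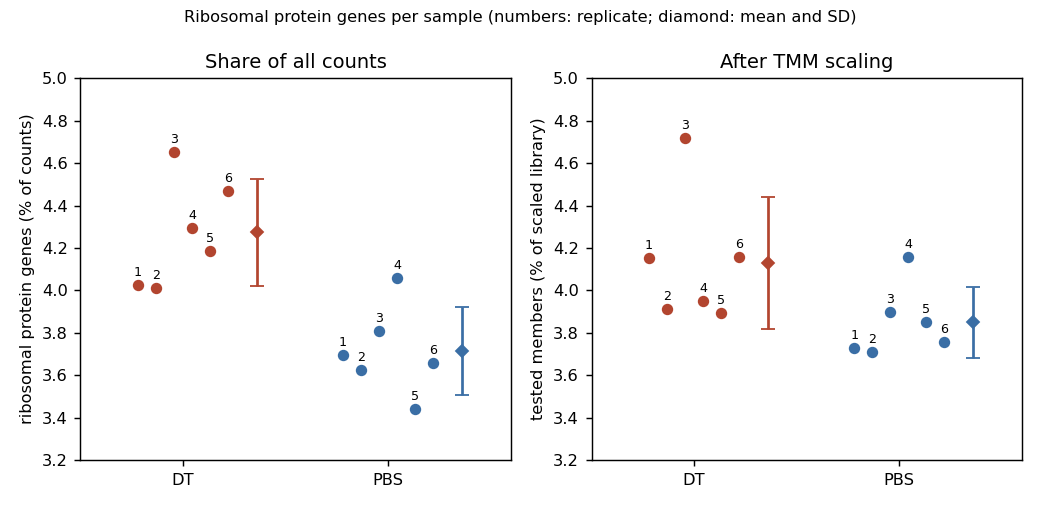
Ribosomal protein genes in each of the 12 samples, as percent of all counts (left) and, for the tested members, as percent of the TMM-scaled library (right), with DT in red and PBS in blue. Points are samples with their replicate number, and diamonds with bars are the mean and SD of 6 samples: 4.27% in DT and 3.71% in PBS on the left, 4.13% in DT and 3.85% in PBS on the right.

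Gene by gene, the members' fold changes were mostly positive and small, and none passed the test. No member of the 81 was called by edgeR at an adjusted p of 0.05, where 1.3% of all tested genes were (0.443% higher in DT and 0.857% lower). That background share moved with single samples. Over the 12 fits that left out 1 sample it ran from 0.322% (without DT 5) to 1.84% (without DT 1). No member was called in any of these fits. At an unadjusted p of 0.05, 23 members (28.4%) were past the threshold, all higher in DT, against 7.43% of all tested genes higher in DT and 7.94% lower. The lower side held no member. The count of 23 became 11 without DT 3 and 13 without PBS 2. Because the members varied together across samples, as described below, counts of members by threshold or sign do not stand for independent genes. DESeq2 called 5 members, all higher in DT (Rpl12, Rps15a, Rps18, Rps7 and Rpl3), where it called 3.8% of all genes, 1.24% as higher. The log2 fold change was positive for 76 of the 81 members, against 51.6% of all tested genes. Their median was 0.11, with a range of -0.07 to 0.39, and the median of all tested genes was 0.01. Among the 1599 other genes with at least 100 CPM the median was -0.08 and 22.3% were positive. The median was 0.14 for the 33 tested members of the small subunit and 0.10 for the 48 of the large subunit, a difference that was not tested.

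**Figure D3:**
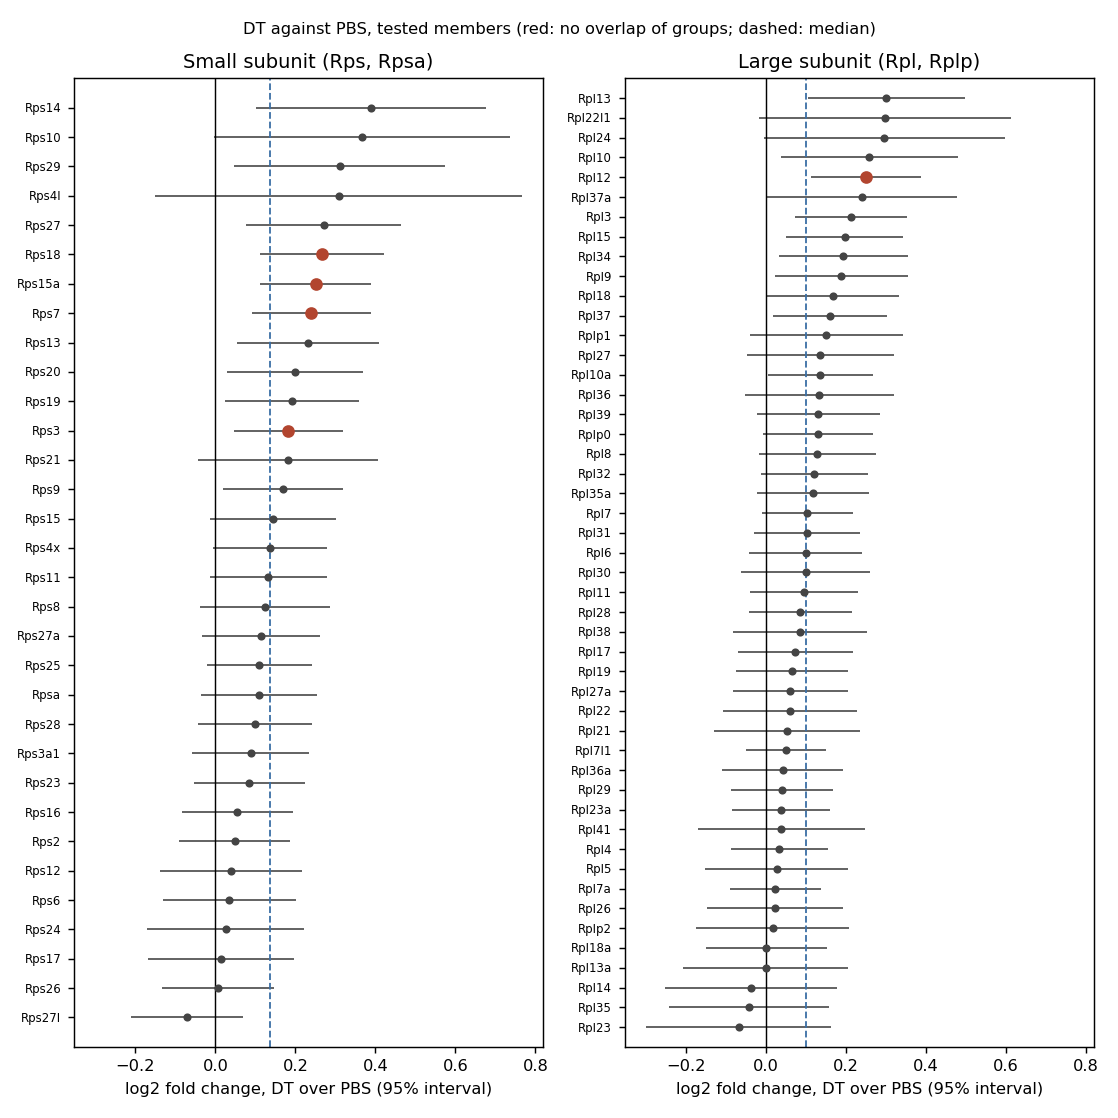
Log2 fold change of DT over PBS with its 95% interval for 32 of the 33 tested members of the small subunit (left) and the 48 of the large subunit (right), ordered by size. The dashed lines mark the medians of all 33 and all 48, 0.14 and 0.10, and red points mark the 5 members whose 6 DT samples all lay above all 6 PBS samples; no member passed an adjusted p of 0.05.

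For 5 members, Rpl12, Rps15a, Rps18, Rps7 and Rps3, all 6 DT samples lay above all 6 PBS samples, which is 6.17% of the 81 members, against 0.836% of all tested genes. No member had all DT samples below all PBS samples, against 1.37% of all genes. Rpl12 (ENSMUSG00000038900), which sits with Rplp0 at the base of the stalk, had a lowest, median and highest level of 678, 717 and 815 CPM in DT, against 566, 618 and 675 CPM in PBS. DT exceeded PBS by 0.25 ± 0.07 on the log2 scale (SE; 95% interval from 0.11 to 0.39), and the edgeR adjusted p = 0.0698 was the smallest of the set. Rps15a (ENSMUSG00000008683), a protein that binds the central domain of the small subunit's RNA, had 299, 322 and 367 CPM in DT, against 247, 283 and 292 CPM in PBS. Its log2 fold change was 0.25 ± 0.07 (SE; edgeR adjusted p = 0.0701). The gap between the groups was narrow for each of them, and in Rpl12 it was the step between DT 4 and PBS 4.

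Rps18 (ENSMUSG00000008668), in the head of the small subunit where it touches the large one, had 478, 510.5 and 598 CPM in DT, against 366, 447 and 463 CPM in PBS. Its log2 fold change was 0.27 ± 0.07 (SE; edgeR adjusted p = 0.0845). Rps7 (ENSMUSG00000061477), which can also bind Mdm2, the ubiquitin ligase that restrains p53, had 434, 449.7 and 536 CPM in DT, against 339.9, 393 and 426 CPM in PBS. The difference was 0.24 ± 0.07 on the log2 scale (SE; edgeR adjusted p = 0.103). Rps3 (ENSMUSG00000030744), at the entry of the mRNA channel, had 693, 733 and 850.4 CPM in DT, against 597, 667 and 692 CPM in PBS, and was named after its values were seen. Here the groups were nearly in contact, and the log2 fold change was 0.18 ± 0.06 (SE; edgeR adjusted p = 0.181).

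The largest fold change came with a wide spread. Rps14 (ENSMUSG00000024608), the small-subunit gene whose loss of 1 copy underlies the anaemia of the human 5q- syndrome, had the largest one at 0.39 ± 0.14 (SE; 95% interval 0.10 to 0.68; edgeR adjusted p = 0.177). Its lowest, median and highest levels were 262, 298 and 377 CPM in DT, against 158, 229 and 312 CPM in PBS, so that the groups overlapped. Rpl13 had 565, 585 and 730.4 CPM in DT, against 400.2, 498 and 594 CPM in PBS, with a log2 fold change of 0.30 ± 0.09 (SE; edgeR adjusted p = 0.122). Rpl3, which reaches into the peptidyl transferase centre, had 649, 688 and 764 CPM in DT, against 534, 602 and 657 CPM in PBS. Its log2 fold change was 0.21 ± 0.07 (SE; edgeR adjusted p = 0.127). In both genes the ends of the 2 ranges overlapped. Rps27, a zinc-binding protein of the small subunit, had 210.4, 234 and 301 CPM in DT, against 173, 199 and 238 CPM in PBS (log2 fold change 0.27 ± 0.09 SE; edgeR adjusted p = 0.162).

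Among the most abundant members the fold changes were mostly near 0. Rplp0 had a lowest, median and highest level of 1628, 1735 and 1982 CPM in DT, against 1484, 1609.6 and 1754 CPM in PBS, and its log2 fold change was 0.13 ± 0.06 (SE; edgeR adjusted p = 0.361). Rpl4, which lines the exit tunnel of the growing chain, had 1481, 1609 and 1684 CPM in DT, against 1502, 1528 and 1634 CPM in PBS, with the DT range holding the whole PBS range. Rps24 had 1097, 1192 and 1442 CPM in DT, against 1037, 1218 and 1435 CPM in PBS, also almost the same range. The log2 fold changes of Rpl4, Rps24, Rps12 and Rps2 were 0.03, 0.03, 0.04 and 0.05, with 95% intervals that reached from -0.17 at the lowest to 0.22 at the highest. Rpsa, known also as a precursor of the laminin receptor, stood between with 992 ± 90.5 CPM in DT and 919.9 ± 56.5 CPM in PBS (SD, n = 6 each; log2 fold change 0.11 ± 0.07 SE; edgeR adjusted p = 0.483). The acidic proteins that extend the stalk and recruit elongation factors differed by less than the SD within DT: Rplp1 averaged 688 ± 99.1 CPM in DT and 620.2 ± 51.1 CPM in PBS, and Rplp2 554 ± 62.8 CPM in DT and 547 ± 71.6 CPM in PBS.

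Further members, named for known roles in assembly, signalling or disease or for a fused product, had log2 fold changes from 0.03 to 0.26, and edgeR called none. Rpl5 and Rpl11 form with 5S RNA the particle that holds back Mdm2 when ribosome assembly stalls. Rpl5 averaged 827 ± 70.3 CPM in DT and 812 ± 99.8 CPM in PBS, and Rpl11 averaged 571 ± 48.0 CPM in DT and 534 ± 27.1 CPM in PBS. Their log2 fold changes were 0.03 (95% interval -0.15 to 0.21) and 0.10 (-0.04 to 0.23). Rps6, the substrate of the S6 kinases, averaged 567 ± 52.5 CPM in DT and 553 ± 56.4 CPM in PBS, with a log2 fold change of 0.03 (-0.13 to 0.20). Rps19, the gene most often mutated in human Diamond-Blackfan anaemia, averaged 302 ± 36.7 CPM in DT and 265 ± 20.4 CPM in PBS, a log2 fold change of 0.19 (0.02 to 0.36; edgeR adjusted p = 0.247). Rps27a, made as a fusion with ubiquitin, averaged 455 ± 48.4 CPM in DT and 421 ± 20.6 CPM in PBS (log2 fold change 0.11; -0.03 to 0.26). Rpl10, which joins the large subunit late in assembly, averaged 462 ± 52.0 CPM in DT and 386 ± 67.4 CPM in PBS (0.26; 0.04 to 0.48; edgeR adjusted p = 0.239).

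A negative log2 fold change was found for 5 members: Rps27l and Rpl23 with -0.07, Rpl35 and Rpl14 with -0.04, and Rpl13a with a value that rounds to 0; with library size as the only scaling all 81 members were positive. Rpl23, Rpl35 and Rpl14 were named after their values were seen. Rpl23 had a lowest, median and highest level of 673, 790.2 and 982 CPM in DT, against 681, 836 and 981 CPM in PBS. Rpl14 had 658, 726 and 909 CPM in DT, against 644, 770.4 and 913 CPM in PBS. Both ranges were nearly the same in the 2 groups, and neither gene moved beyond its spread. Rpl13a, whose product leaves the ribosome in interferon-stimulated human myeloid cells, averaged 44.5 ± 4.78 CPM in DT and 44.5 ± 6.95 CPM in PBS.

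Paralogs are less abundant forms of a member. Per coding kilobase Rpl22l1 had 118 CPM beside 664 for Rpl22, Rps27l had 118 beside 887 for Rps27, and Rpl7l1 had 69.7 beside 851 for Rpl7, and none of the paralogs passed the test between DT and PBS. Rpl22l1 averaged 47.7 ± 9.08 CPM in DT and 38.7 ± 9.45 CPM in PBS (log2 fold change 0.30; 95% interval -0.02 to 0.61), beside Rpl22 at 259 ± 27.5 CPM in DT and 249 ± 24.5 CPM in PBS (0.06; -0.11 to 0.23). Rps27l, a target of p53, averaged 29.1 ± 2.65 CPM in DT and 30.5 ± 1.88 CPM in PBS (-0.07; -0.21 to 0.07). Rpl7l1 averaged 52.3 ± 2.10 CPM in DT and 50.5 ± 1.74 CPM in PBS, and its SD within groups of 0.0533 on the log2 scale was the smallest among the tested members. Rps4l, the transcribed pseudogene, had the largest SD, 0.455, with 5.26 to 12.7 CPM in DT and 4.39 to 7.95 CPM in PBS, beside its parent Rps4x at 852 ± 71.7 CPM in DT and 775 ± 48.4 CPM in PBS. The tissue-restricted paralogs were at or near 0. Rpl39l and Rpl10l, known from testis, had 2 counts in DT and 4 in PBS, and 0 counts in both groups.

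Rpl3l, the form of Rpl3 that striated muscle makes, had 23 counts in DT and 26 in PBS, spread unevenly over the samples. Its 3 highest counts were 15 in DT 6, 14 in PBS 3 and 8 in PBS 1. The summed level of 8 skeletal muscle markers (CPM not TMM-scaled) was 33.0 CPM in DT 6, 46.3 CPM in PBS 3 and 66.5 CPM in PBS 1. These were the highest value of the DT group and the 2 highest of the PBS group. Over all samples the muscle sum ran from 5.10 to 33.0 CPM in DT and from 3.69 to 66.5 CPM in PBS, and no muscle marker was at 0 over the 12 samples. The muscle sum thus varied widely within both groups, and its part in the other members' levels was not tested.

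The 2 tested members with the lowest levels had large fold changes with wide intervals. Rps10 had 1.79, 2.55 and 3.12 CPM in DT, against 1.30, 1.89 and 2.53 CPM in PBS, from 461 counts in DT and 296 in PBS (log2 fold change 0.37 ± 0.17 SE; edgeR adjusted p = 0.331). Rpl24 had 1.22, 1.36 and 1.47 CPM in DT, against 0.805, 1.13 and 1.28 CPM in PBS, from 252 counts in DT and 167 in PBS (0.30 ± 0.14 SE; edgeR adjusted p = 0.337). Both are among the genes that overlap another annotated gene, and the part of that overlap in these values was not tested. Of the ribosomal components that the symbol rule does not take, Rack1, a scaffold on the head of the small subunit, had 643, 718 and 825 CPM in DT, against 529, 606 and 696 CPM in PBS. Its log2 fold change was 0.23 ± 0.08 (SE; edgeR adjusted p = 0.155). Fau, which encodes Rps30 fused to a ubiquitin-like protein, averaged 306 ± 36.2 CPM in DT and 305 ± 29.96 CPM in PBS.

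The members varied together from sample to sample around the means of their groups. Over the 74 members with at least 100 CPM, the median correlation between the within-group deviations of a pair was 0.616, and 85.5% of pairs were positive. For the 1599 other genes at that level the median was 0.0831 and 54.5% of pairs were positive. The 12 samples share their library sizes and scaling factors across all pairs, so these figures are a description. They pool the deviations of both groups, and DT 3 lay farthest out. Its mean log2 CPM over the members was 0.215 above that of its group, and the next largest deviation was -0.0945, in PBS 2. No correlation was computed without DT 3 or for a single group. Rpl38 and Rpsa followed the other members most closely, with a mean correlation of 0.689 each. Rpl23 (0.104), Rpl4 (0.170), Rpl14 (0.206), Rpl5 (0.220) and Rps6 (0.242) followed them least, and all of these were singled out after their values were seen. The first principal component of the members took 57.3% of their variance over the 12 samples.

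DT 3 stood out as the sample richest in these mRNAs. It was the highest of the 12 samples for 61 of the 81 tested members and above the mean of its group for all 81. At the other end, PBS 2 was the lowest sample for 43 members and PBS 5 for 15, while PBS 4 lay above the mean of its group for 69. Without DT 3 the median log2 fold change of the members was 0.07, with 68 of 81 positive and no member called. In the map of levels by sample, the genes at the top, with the largest fold changes, were low in PBS 2 above all, and those at the bottom, Rpl23, Rpl35 and Rpl14, were high in PBS 4, PBS 2 and DT 6.

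**Figure D4:**
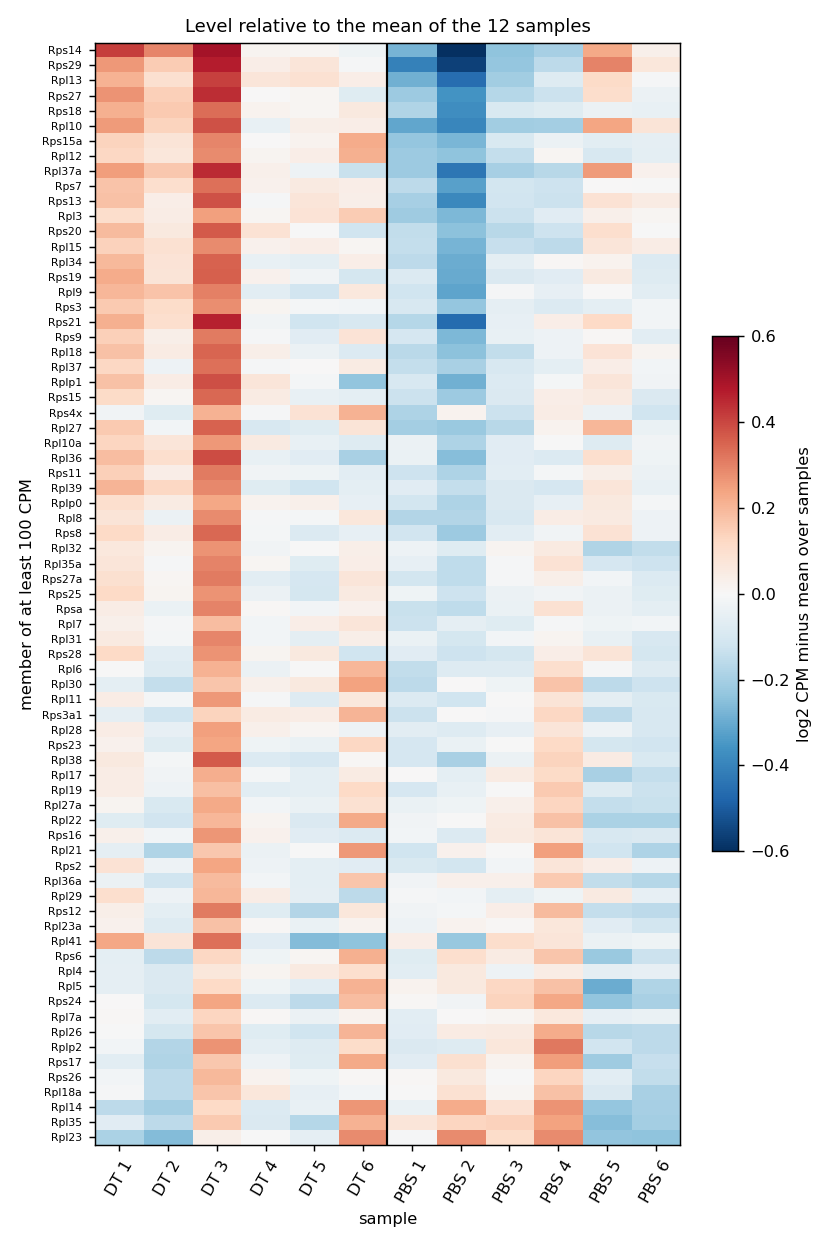
Level of 73 of the 74 members with at least 100 CPM in each sample, as log2 CPM minus the gene's mean over the 12 samples (red above, blue below), with DT samples left of the line and PBS samples right of it. Genes are ordered by log2 fold change of DT over PBS, from Rps14 at 0.39 at the top to Rpl23 at -0.07 at the bottom; DT 3 is above the mean in nearly every row.

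The number of members called depended on the scaling and on which samples were compared. The members' median exceeded the median of all tested genes by 0.11 with TMM, and by 0.06 without DT 3. A scaling factor moves all genes of a sample alike, so other scalings could hardly change that distance. With library size as the only scaling the median was 0.11 for all genes and 0.21 for the members. In that fit 31 members (38.3%) were called, all higher in DT, against 3.89% of all genes (3.4% higher). The samples were also split by the sign of the first principal component of the other genes, which took 26.6% of their variance. Among DT 1 to 3 and PBS 5 and 6 the members' median was 0.17, with 81 of 81 positive and none called, against 0.0206% of all genes. Among DT 4 to 6 and PBS 1 to 4 it was 0.06, with 57 of 82 positive and 7 called (8.54%). All 7 were higher in DT, against 7.75% of all genes called (2.75% higher). The share called over all genes thus moved with the split as well.

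**Figure D5:**
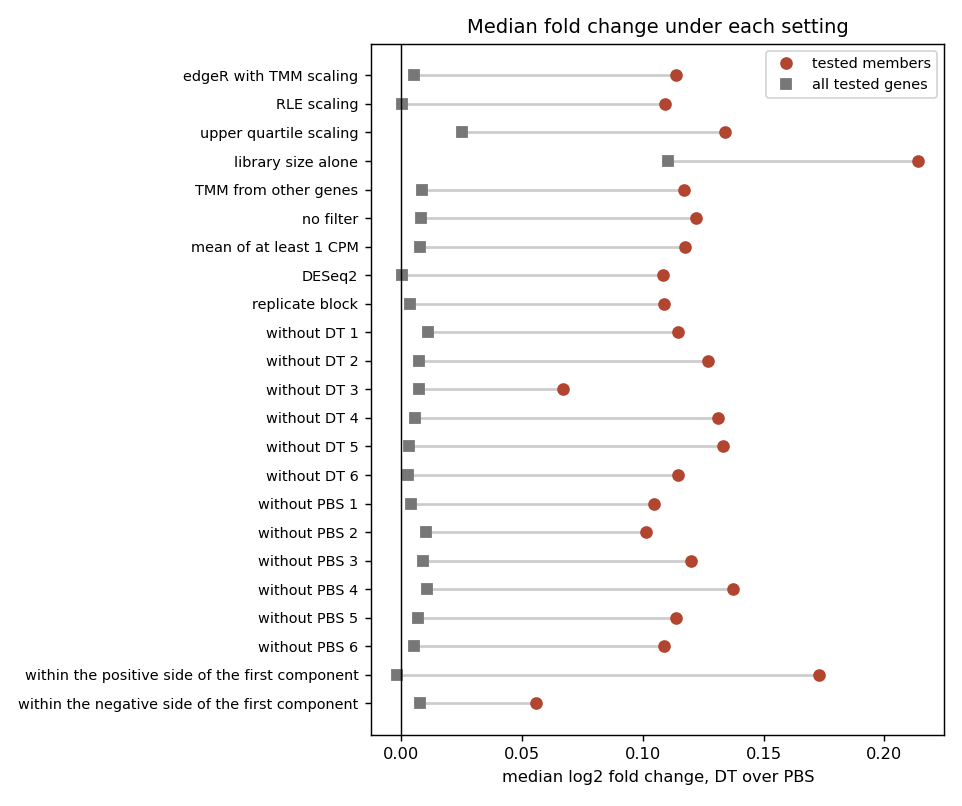
Median log2 fold change of DT over PBS for the tested members (red circles) and for all tested genes (grey squares) under each setting, from the edgeR fit with TMM scaling at the top through other scalings, filters and tools to fits that leave out 1 sample or use 1 side of the first component. In these fits the members' median, 0.06 to 0.21, lay above that of all genes.

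Other genes of protein synthesis are given by their counts and medians, and the difference between these lists and the members was not tested. None of 30 tested ribosome biogenesis genes was called by edgeR or DESeq2 (1 at an unadjusted edgeR p of 0.05), 18 of the 30 were positive and their median log2 fold change was 0.03. For 12 genes of RNA polymerase I transcription, which makes the ribosomal RNA, the median was 0.05 and neither tool called any (1 at an unadjusted p of 0.05). Polr1b, the second largest subunit of that polymerase, averaged 14.3 ± 1.65 CPM in DT and 11.6 ± 1.07 CPM in PBS (SD, n = 6 each; log2 fold change 0.30 ± 0.09 SE; edgeR adjusted p = 0.0967). Among 28 translation initiation factors 1 was lower in DT, none was higher, 9 were positive and the median was -0.04. That gene was Eif4e, the cap-binding protein, which fell to 99.96 ± 4.09 CPM in DT, against 118 ± 5.56 CPM in PBS (log2 fold change -0.24 ± 0.05 SE; edgeR adjusted p = 0.0255). Eif3f, an initiation factor whose mRNA is of the TOP class, averaged 177 ± 12.5 CPM in DT and 154 ± 12.5 CPM in PBS (0.21 ± 0.06 SE; edgeR adjusted p = 0.126).

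Elongation factors, several of whose mRNAs are known for the TOP tract, had a median log2 fold change of 0.08 over 6 genes, with 4 positive. Of these 6, edgeR called none (2 at an unadjusted p of 0.05) and DESeq2 called Eef1a1. Eef1a1, which delivers aminoacyl-tRNA, averaged 5391 ± 219 CPM in DT and 4772 ± 252 CPM in PBS (0.18 ± 0.06 SE; edgeR adjusted p = 0.192; DESeq2 adjusted p = 0.0191). A further 9 TOP mRNAs had a median of 0.06, with 6 positive, none called by edgeR (1 at an unadjusted p of 0.05) and 1 called by DESeq2. That gene was Cct4, a chaperonin subunit, which averaged 109.9 ± 6.53 CPM in DT and 97.1 ± 4.84 CPM in PBS (edgeR adjusted p = 0.115; DESeq2 adjusted p = 0.0481). Values pointed both ways, and Pabpc1, the poly(A)-binding protein, averaged 2121 ± 154 CPM in DT and 2362 ± 219 CPM in PBS. For 13 tested regulators of ribosomal protein synthesis the median was 0.04 and neither tool called any (1 at an unadjusted edgeR p of 0.05). For 9 genes of ribosome dissociation and quality control the median was -0.08, and none was called by either tool or was past an unadjusted edgeR p of 0.05 (0 of 9). The 77 tested mitochondrial ribosomal proteins, which serve another ribosome, had 37 positive values, a median that rounds to 0 and no call by edgeR, with 5 past an unadjusted p of 0.05 and 1, Mrpl42, called by DESeq2 as lower in DT.

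Markers of the cell types in the preparation also differed between the groups, and their part in the ribosomal values was not tested. All 8 markers of differentiated tongue keratinocytes had a negative log2 fold change and 2 fell by edgeR (DESeq2 called 3), Krt78 to 4298 ± 412 CPM in DT, against 5573 ± 562 CPM in PBS (edgeR adjusted p = 0.0441), and Elovl4 to 728 ± 70.9 CPM in DT, against 891 ± 34.9 CPM in PBS (edgeR adjusted p = 0.0480). Their summed level ran from 114560 to 131458 CPM in DT and from 126216 to 139860 CPM in PBS. The marker sums given here are of CPM that are not TMM-scaled, unlike the levels of single genes. Of 7 basal keratinocyte markers 3 were positive, edgeR called none (1 at an unadjusted p of 0.05) and DESeq2 called Itgb4, higher in DT (DESeq2 adjusted p = 0.0397; edgeR adjusted p = 0.127). Their sum ran from 9450 to 12180 CPM in DT and from 9591 to 11297 CPM in PBS. Of 6 markers of cycling cells 1 was positive, and neither tool called any (1 at an unadjusted edgeR p of 0.05). Erythrocyte markers were low, and 3 of 5 fell by edgeR (4 were called by DESeq2), with sums of 16.7 to 25.1 CPM in DT and 20.4 to 50.3 CPM in PBS. Of 5 Langerhans cell markers Cd207 alone was called by either tool, lower in DT. At an unadjusted edgeR p of 0.05, 2 of the 5 were past the threshold, Cd207 and Cd1d1. Cd1d1 was the 1 positive marker, at 2.43 ± 0.589 CPM in DT and 1.57 ± 0.586 CPM in PBS (SD, edgeR adjusted p = 0.210). The sum of the 5 ran from 169 to 215 CPM in DT and from 151 to 212 CPM in PBS. Cd207, at 2.80 CPM in PBS, is a small part of that sum and hardly moves it. Cd74 averaged 84.3 CPM in DT and 89.1 CPM in PBS, and H2-Ab1 42.3 CPM in DT and 46.3 CPM in PBS. For skeletal muscle (6 tested), fibroblasts (5), endothelium (2), T cells (2), macrophages (3) and Schwann cells (1) edgeR called none. All tested muscle, fibroblast and macrophage markers had negative log2 fold changes, with medians of -1.07, -0.60 and -0.29. Those of T cells and Schwann cells were positive, and endothelium had 1 of each sign. At an unadjusted p of 0.05 the counts were 1 for muscle, 2 for fibroblasts, 1 for endothelium, 2 for macrophages, and 0 for T cells and Schwann cells. DESeq2 called 1 gene of these lists, the fibroblast collagen Col3a1, lower in DT (DESeq2 adjusted p = 0.0399; edgeR adjusted p = 0.122). No marker of these lists was at 0 over the 12 samples.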

How the data were processed

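RNA was sequenced with a stranded mRNA kit from 6 DT and 6 PBS samples of digested tongue epithelium, per the labels' protocols. The authors deposited raw read counts per gene and sample. They also deposited a normalised signal, in which each sample's counts are scaled by 1 size factor. It served only to check the table: within each sample the ratio of count to normalised value differed between genes by 0%. Size factors were not recomputed for this check. The submitters' processing notes name build GRCm39 and list TopHat2 2.1.1, cutadapt 2.10, DESeq2 1.36.0 and HTSeq 2.01; the annotation and strand setting are not given in the sources used here, so genes that overlap or are near-identical are uncertain. Of 55414 genes, 6250 had blank counts and were left out, none of them a member.

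Counts were fitted over all genes in R 4.3.3 with edgeR 4.0.16: filterByExpr (minimum count 10), TMM scaling and a two-sided quasi-likelihood F test of DT against PBS with no covariate. P-values were adjusted by Benjamini-Hochberg over the 14231 tested genes, with a threshold of 0.05. DESeq2 1.42.0, other scalings and filters, a replicate block, leaving out each sample and a split by the first principal component of the other genes were alternatives. Fitting was tested on simulated data. Lengths and overlaps came from GENCODE M21 and start sites from RefSeq, both of build GRCm38, which differs from the build of the counts.

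The members and gene lists were chosen with earlier results of these data known. Results of 2 single genes are not reported here, though both stay in the fits. Genes were named by rule: the 8 smallest p, the 6 highest levels and, among tested members, the 4 lowest levels, the largest and smallest spread and the 3 highest and lowest per coding length, a set of members with paralogs or known roles, Fau and Rack1, and up to 4 of the smallest p in other lists. In a single sample 3 counts, taken as the floor of detection, corresponded to 0.0874 to 0.141 CPM of the unscaled library, which covers counting error only.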

Additional observations from a re-analysis of the deposited data

Results flagged for a closer look

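For 82 groups of 6 samples (the 2 groups of each named gene with its level in CPM, and those of the shares) the highest and lowest sample were set against the others, and 2 samples stood far from their group; chance alone gives about 1 in 20 groups. Rpsa had 1172.46 CPM in DT 3, where the next DT sample had 982.245 CPM and the lowest 927.588 CPM. Rps27l had 34.1962 CPM in PBS 4, where the next PBS sample had 30.6523 CPM and the lowest 29.214 CPM.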

How the results depend on the processing

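The count of called members was 0 with edgeR under TMM, and 0 under DESeq2's median-of-ratios factors (RLE), upper quartile scaling, TMM from the other genes, both other filters and all 12 fits that left out 1 sample. It was 31 with library size alone (38.3%, against 3.89% of all genes) and 5 with DESeq2 (6.17%, against 3.8%). Among DT 4 to 6 and PBS 1 to 4 it was 7 (8.54%, against 7.75% of all genes). The 23 members at an unadjusted p of 0.05 became 61 with library size alone, 15 with the block described below and 11 to 30 when 1 sample was left out. The 185 genes called in all became 553 with library size alone, 567 with DESeq2 and 46 to 263 when 1 sample was left out. The median log2 fold change of the members, 0.11, became 0.21 with library size alone, and ran from 0.07 to 0.14 when 1 sample was left out. The share difference of 0.561 points became 0.281 points over the TMM-scaled library and 0.485 to 0.630 points when 1 sample was left out.

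With the replicate number as a block (replicate block), 0 members were called, the median was 0.11, the share difference was 0.561 points and 8 genes in all were called, against 185 without it. Samples with the same number did not deviate together, with correlations of -0.159, -0.325, 0.107, -0.00321, -0.227 and -0.303 for numbers 1 to 6, so the numbers were not taken to pair the samples.

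Fold changes near 0 changed sign under some settings, none past the threshold, and the cause was not tested. Fau, 0.0014 in the TMM fit, was -0.0030 under RLE, -0.0038 with DESeq2 and -0.00075 with the block. Rpl13a, -0.0012 in the TMM fit, was 0.018 under upper quartile scaling, 0.097 with library size alone, 0.0011 with TMM from the other genes, 0.0062 with no filter, 0.00099 at a mean of at least 1 CPM and 0.0073 with the block. Rps27l was 0.032 with library size alone. Among DT 1 to 3 and PBS 5 and 6, Rps27l was 0.028 and Rpl13a 0.30. Among DT 4 to 6 and PBS 1 to 4, the values were -0.18 for Fau, -0.19 for Rpl41, -0.10 for Rps24, -0.11 for Rps12, -0.069 for Rplp2, -0.051 for Rpl5, -0.017 for Rps2 and -0.017 for Rpl36a. When 1 sample was left out, the ranges were -0.057 to 0.056 for Fau, -0.060 to 0.061 for Rpl13a, -0.028 to 0.089 for Rpl41, -0.021 to 0.082 for Rps24, -0.024 to 0.088 for Rps12, -0.039 to 0.094 for Rplp2, -0.0061 to 0.078 for Rps6 and -0.025 to 0.070 for Rpl5.

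The 6 most abundant members had at least 16763 counts in every sample, whereas Rpl24 rested on 22 to 48 counts per sample. The part of depth in the results was not tested.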
